A study of Mus musculus with 6 samples.

Results

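Secreted chemokines and cytokines were described in mouse melanocytes with an inducible oncogenic kinase, alone or together with a transcription factor of embryonic development. The set is 9 genes: the CC chemokine genes Ccl2, Ccl5 and Ccl7, the CXC chemokine genes Cxcl1, Cxcl10 and Cxcl12, the interleukin-6 family genes Il6 and Lif, and Csf1. They were taken by gene symbol, and all 17 probe sets annotated to them were kept, of 34945 probe sets with 1 gene symbol, so the set is 9 of 18193 genes. The cells were melan-a, an immortal line grown out from the embryonic skin melanoblasts of C57BL/6 mice, transduced with delta-BRAF-ER, a truncated and active BRAF fused to an oestrogen receptor domain so that tamoxifen turns it on. The labels name 6 groups, and each has 1 array. In the first, BRAF was not activated (BRAF-off). In the second it was activated (BRAF-on). In the other 4 it was activated in cells that also carried ZEB2, SNAIL2, TWIST1 or ZEB1. The dose and duration of tamoxifen, the number of clones or pools and the promoter of each construct are not given in the sources used here. No array is labelled as one of these factors without BRAF activation, or as tamoxifen without the construct, so an effect of the drug and an effect of BRAF cannot be told apart.

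Cells that stop dividing after an oncogene is switched on often release inflammatory proteins, a programme called the senescence-associated secretory phenotype. Chemokines are small proteins that guide leukocytes: CC chemokines such as CCL2 and CCL7 draw monocytes, CCL5 and CXCL10 draw T cells, CXCL1 draws neutrophils, and CXCL12 holds cells that carry its receptor CXCR4. IL-6 and LIF signal through the shared receptor chain gp130 (gene Il6st) to STAT3, and CSF1 supports macrophages through its receptor. Many of these genes are known targets of NF-kB, of C/EBP factors, of AP-1 or, for Cxcl10 and Ccl5, of interferon signalling.

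Values are array signals on a linear scale, scaled by the authors so that every array has the same trimmed mean. Signals below the median of all values, 63.7 units, were treated as equal to it (the floor). Where only 1 array of a pair reached the floor, the fold is a lower bound. Since there is 1 array per group, there is no spread between samples: no test was possible, every ratio describes 2 arrays, and neighbouring arrays in an order cannot be told apart. In place of a test, each count stands beside the share of all genes that passed the same size, 2-fold. Earlier results of these data were known when the members and lists were chosen. The share is therefore a description and not a level set by chance. For a gene with several probe sets the brightest was used. Levels are compared between arrays for 1 gene, and not between genes.

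Across the 6 arrays, 10611 to 11269 genes reached the floor. The ratio of 3' to 5' signal, a measure of RNA integrity, ran from 0.792 to 0.839 for Gapdh and from 1.36 to 1.54 for Actb. Control transcripts added before amplification were 2.55-fold higher on the array labelled SNAIL2 than on BRAF-on, above it on 24 of 24 probe sets, and 0.880-fold to 1.42-fold on the other arrays. The part of this in the values of that array was not tested. Of the 9 probe sets for the introduced factors that reached the floor, 0 were at least 2-fold higher on the array with that label than on BRAF-on. The highest ratio was 1.70, for Zeb2. Those of the other factors were below BRAF-on on the array with their label. Snai2 was at 0.352-fold and 0.752-fold of it, Twist1 at 0.823-fold and Zeb1 at 0.813-fold. For that reason each array goes by its label here, and "with TWIST1" stands for the array so labelled. Melanocyte markers differed between arrays, by the counts given beside each comparison. They were largely under the floor on the one labelled TWIST1, where the melanin enzyme gene Dct was at 4.54, Tyrp1 at 13.1 and Tyr at 28.7, all under the floor, while the lineage factor gene Sox10 was at 1941. In such bulk samples fewer cells of a type and less RNA per cell cannot be told apart.

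**Figure D1:**
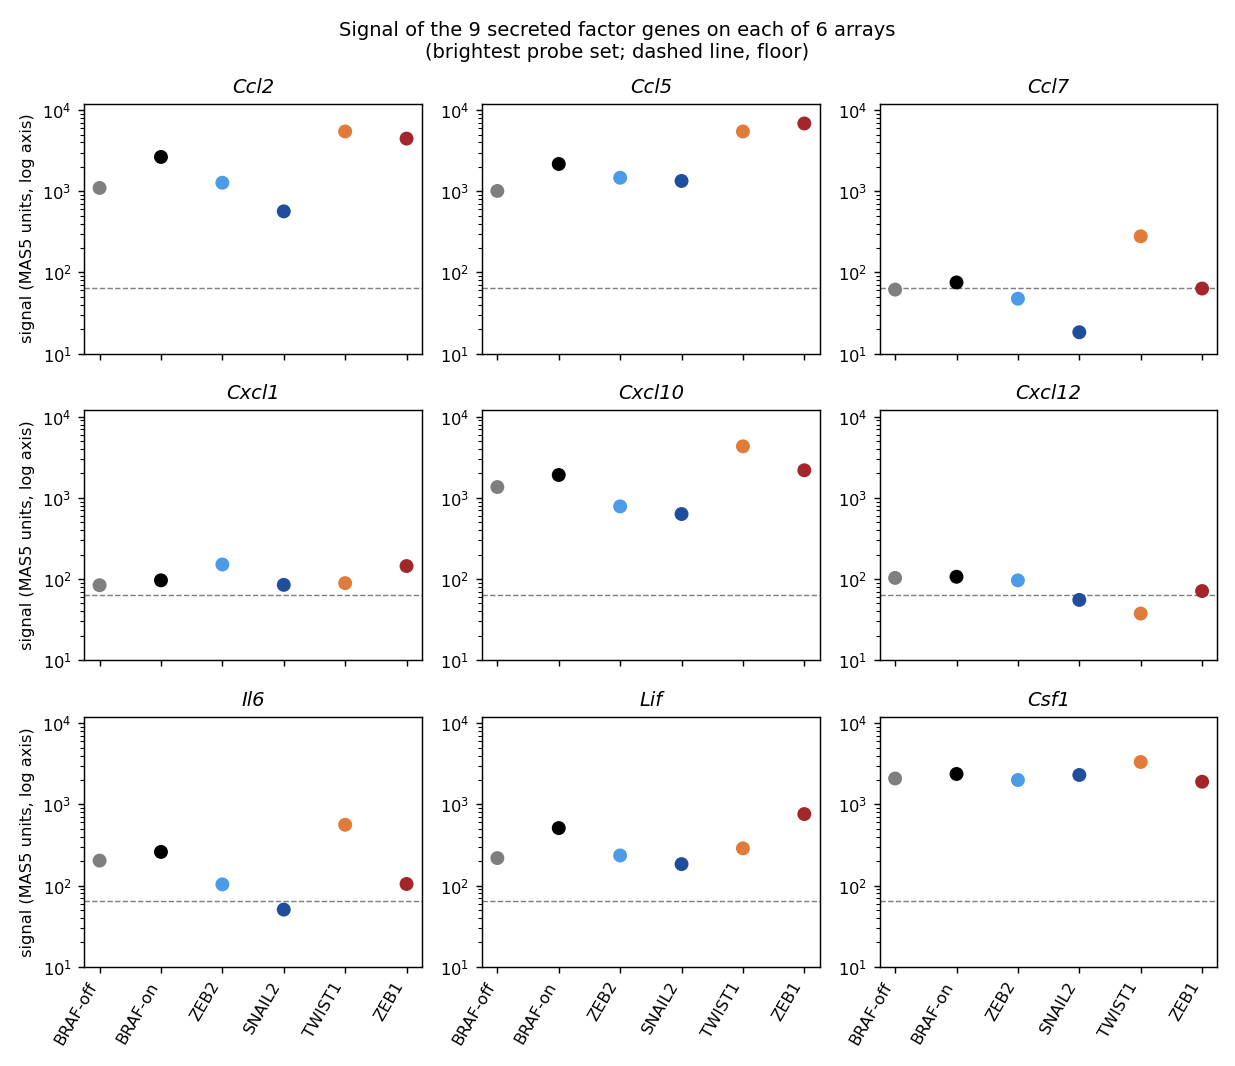
Signal of each of the 9 genes (vertical axis, MAS5 signal units on a log scale) on the 6 arrays (horizontal axis), 1 point per array, with the floor of 63.7 as a dashed line. Ccl2, Ccl7, Cxcl10 and Il6 were highest on the array labelled TWIST1 and lowest on that labelled SNAIL2, Lif was highest with ZEB1, and Cxcl1 and Cxcl12 stayed near the floor.

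Ccl2, the main monocyte chemokine gene, had a signal of 1097 without and 2644 with BRAF activation. With ZEB2 it was at 1272 and with SNAIL2 at 564, whereas with TWIST1 it was at 5450 and with ZEB1 at 4455. The array with ZEB2 thus lay close to BRAF-off, that with SNAIL2 below both reference arrays, and those with TWIST1 and ZEB1 above both. Against BRAF-off, Ccl2 was 2.41-fold higher in BRAF-on, 4.97-fold higher with TWIST1 and 4.06-fold higher with ZEB1. Against BRAF-on, it was 2.08-fold lower with ZEB2 and 4.69-fold lower with SNAIL2. Over the arrays Ccl2 covered a 9.66-fold range, the widest of the 9 genes after values under the floor were raised to it.

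Ccl5, which encodes RANTES, a chemokine for T cells and monocytes, was at 1008 in BRAF-off, 2167 in BRAF-on, 1466 with ZEB2, 1338 with SNAIL2, 5448 with TWIST1 and 6840 with ZEB1. All 5 activated arrays lay above BRAF-off, which 10.5% of the 12040 genes that reached the floor on any array did. With ZEB1 it was 3.16-fold above BRAF-on and 6.79-fold above BRAF-off. With ZEB2 and SNAIL2 it lay between the reference arrays, 1.48-fold and 1.62-fold under BRAF-on.

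Ccl7, a monocyte chemokine gene next to Ccl2 on chromosome 11, reached the floor on 2 arrays only. It was at 278 with TWIST1 and 75.1 in BRAF-on, and under the floor in BRAF-off (61.3), with ZEB1 (63.2), with ZEB2 (47.4) and with SNAIL2 (18.3). With TWIST1 it was 3.70-fold above BRAF-on and at least 4.37-fold above BRAF-off. On the array labelled ZEB1, where Ccl2 was 1.68-fold above BRAF-on, Ccl7 was at least 1.18-fold below it. Farther along the same cluster, Ccl12 reached the floor on the array labelled TWIST1 only (73.7), Ccl8 did on those with SNAIL2 (80.4), TWIST1 (78.3) and ZEB1 (76.6), and Ccl11 on none.

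Cxcl10, an interferon-inducible chemokine gene that acts on the receptor CXCR3, had a signal of 1357 in BRAF-off against 1912 in BRAF-on. It was 784 with ZEB2, 631 with SNAIL2, 4312 with TWIST1 and 2185 with ZEB1. The arrays with ZEB2 and SNAIL2 were both below BRAF-off, by 1.73-fold and 2.15-fold, and that with TWIST1 was 3.18-fold above it. The difference between the reference arrays, 1.41-fold, was smaller than any of these. Cxcl9, which lies near it on chromosome 5 and whose product binds the same receptor, was under the floor on all 6 arrays, while Cxcl11 reached it on those with TWIST1 (100.4) and ZEB1 (127).

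Cxcl1 and Cxcl12 were dim, and their values carry the least weight of the set. Cxcl1, a neutrophil chemokine gene, was at 83.7 in BRAF-off, 96.2 in BRAF-on, 151 with ZEB2, 84.6 with SNAIL2, 88.9 with TWIST1 and 144 with ZEB1. No array was 2-fold from BRAF-on or BRAF-off. The probe set used is of a kind that can match several transcripts. Of its other 2, a second such probe set was highest with ZEB1 (107) and under the floor with ZEB2 (48.0), and a gene-specific one was under the floor on all 6 arrays. Cxcl12, whose product keeps melanocyte precursors and other CXCR4-bearing cells in place, was at 103 in BRAF-off, 106 in BRAF-on, 96.0 with ZEB2 and 71.0 with ZEB1, and under the floor with SNAIL2 (55.2) and TWIST1 (37.5). Its other 2 probe sets reached the floor on no array.

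Il6 encodes the cytokine most often used as a mark of the senescent secretory programme. It was at 203 in BRAF-off, 260 in BRAF-on, 103 with ZEB2, 50.6 with SNAIL2, 561 with TWIST1 and 105 with ZEB1. Only the array labelled TWIST1 was above the reference arrays, 2.16-fold over BRAF-on and 2.76-fold over BRAF-off. The other 3 factor arrays were below both: with SNAIL2 at least 4.08-fold under BRAF-on, with ZEB2 2.52-fold and with ZEB1 2.48-fold. The arrays labelled TWIST1 and ZEB1, which both had high Ccl2 and Ccl5, therefore stood on opposite sides of BRAF-on for Il6.

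Lif, a cytokine gene of the same family and a known output of ERK signalling, stood at 218 in BRAF-off, against 511 in BRAF-on. With ZEB2 it was at 235, with SNAIL2 at 184, with TWIST1 at 288 and with ZEB1 at 761. Here the array with TWIST1 lay 1.78-fold below BRAF-on, in contrast to Ccl2, Ccl5, Ccl7, Cxcl10 and Il6, while that with ZEB1 was 3.49-fold above BRAF-off. The arrays with ZEB2 and SNAIL2 were 2.18-fold and 2.78-fold below BRAF-on and within 1.19-fold of BRAF-off. The second Lif probe set was under the floor on all 6 arrays.

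Csf1, the macrophage growth factor gene, varied least among the bright members. It was at 2086 in BRAF-off, 2372 in BRAF-on, 1998 with ZEB2, 2305 with SNAIL2, 3334 with TWIST1 and 1904 with ZEB1, a 1.75-fold range. Csf1 has 4 probe sets that reached the floor on all 6 arrays, and on 4 of 4 the array labelled TWIST1 was highest, at 266, 457, 1264 and 3334. The rise over BRAF-on differed among them, from 1.07-fold to 2.01-fold, and the probe sets gave no common lowest array. Between the reference arrays 3 of them were higher in BRAF-on and 1, at 227 against 290, was lower. The lower probe set also gave the 2.01-fold rise, and it is of the kind that can match several transcripts. On the other 3 the rise was 1.07-fold to 1.41-fold.

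**Figure D2:**
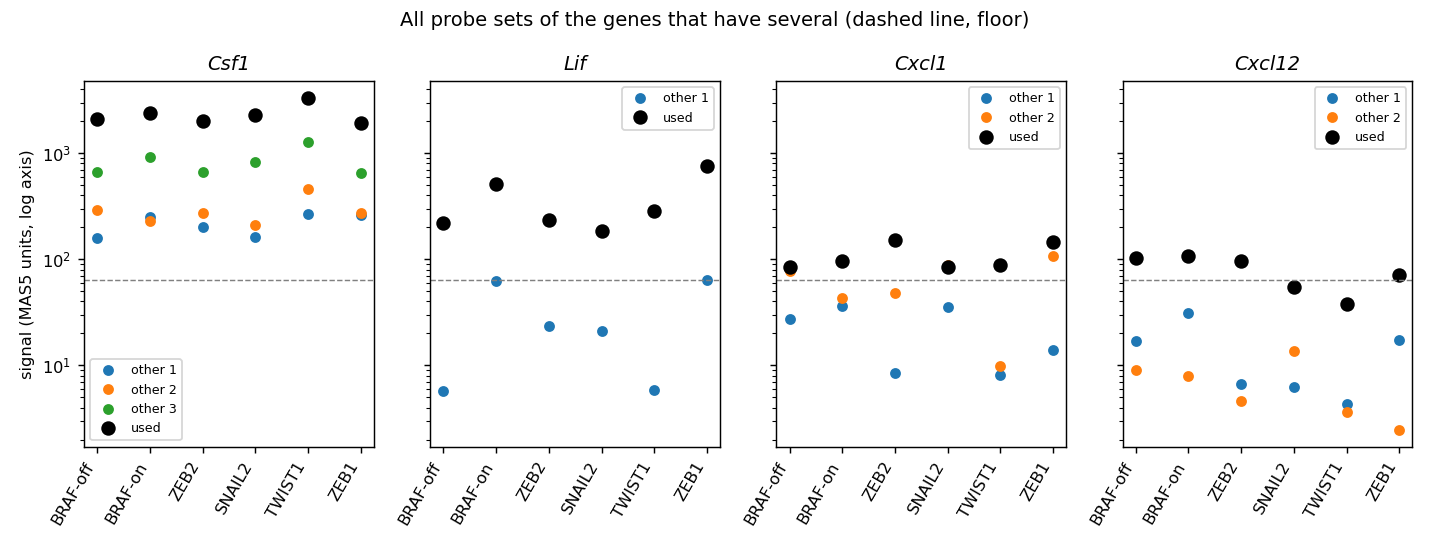
Signal (vertical axis, MAS5 signal units on a log scale) on each array (horizontal axis) of every probe set of Csf1, Lif, Cxcl1 and Cxcl12, the genes with more than 1; black points are the probe set used and the dashed line is the floor. The Csf1 probe sets were all highest with TWIST1, whereas the other probe sets of Lif and Cxcl12 stayed under the floor and those of Cxcl1 differed from each other in their order of arrays.

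Stretches of 250 bases before the transcript start, from RefSeq on GRCm38.p6, are shown for Il6, Cxcl10 and Lif, which were among the genes farthest from BRAF-on, and for Csf1, whose probe set used here stayed within 2-fold of both reference arrays. The promoter table matched 6 of the 9 members, and Ccl2, Ccl5 and Ccl7 were not among them. Capitals mark matches, on either strand, to the AP-1 motif TGANTCA, to the kappa B motif bound by NF-kB, and to CAGGTG, the E-box known to be bound by ZEB and SNAI proteins.
Il6: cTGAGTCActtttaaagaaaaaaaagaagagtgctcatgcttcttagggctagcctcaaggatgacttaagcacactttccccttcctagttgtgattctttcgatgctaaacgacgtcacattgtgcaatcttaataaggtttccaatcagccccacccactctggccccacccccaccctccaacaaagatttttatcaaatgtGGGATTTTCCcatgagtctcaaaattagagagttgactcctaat
Cxcl10: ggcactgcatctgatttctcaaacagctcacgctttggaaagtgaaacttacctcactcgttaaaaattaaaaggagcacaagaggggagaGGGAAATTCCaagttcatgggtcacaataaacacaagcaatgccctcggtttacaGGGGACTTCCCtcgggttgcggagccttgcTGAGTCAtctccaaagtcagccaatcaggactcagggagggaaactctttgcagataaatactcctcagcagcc
Lif: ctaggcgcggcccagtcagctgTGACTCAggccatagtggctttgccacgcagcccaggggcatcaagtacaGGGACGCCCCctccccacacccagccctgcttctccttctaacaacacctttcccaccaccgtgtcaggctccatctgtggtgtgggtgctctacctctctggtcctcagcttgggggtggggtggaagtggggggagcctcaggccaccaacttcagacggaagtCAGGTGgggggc
Csf1: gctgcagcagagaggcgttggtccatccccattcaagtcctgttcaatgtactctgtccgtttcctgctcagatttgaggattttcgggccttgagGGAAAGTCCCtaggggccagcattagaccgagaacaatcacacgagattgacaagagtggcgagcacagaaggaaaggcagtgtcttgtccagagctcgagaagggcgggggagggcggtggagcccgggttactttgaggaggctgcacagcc
The windows are chr5:30012864-30013113 on the plus strand for Il6, chr5:92348890-92349139 on the minus strand for Cxcl10, chr11:4257318-4257567 on the plus strand for Lif and chr3:107760470-107760719 on the minus strand for Csf1, each written 5' to 3' along the gene. Neighbouring capitals in Cxcl10 and Lif hold overlapping or both-strand matches.

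A kappa B match lay in 5 of the 6 windows (Cxcl1, Cxcl10, Il6, Lif and Csf1), against 7.25% of the 32851 promoter windows of that length in the table. AP-1 matches lay in 3 of 6, those of Cxcl10, Il6 and Lif, against 6.75%. The CAGGTG E-box was found once, in Lif, against 17.2% of all windows. Any E-box of the form CANNTG, which includes CAGGTG, was in 4 of 6 windows and in 66.2% of all. These matches describe letters in a short window. Csf1, with a kappa B match, and Cxcl10, with kappa B and AP-1 matches, differed in how far they ranged over the arrays, 1.75-fold against 6.83-fold.

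BRAF activation alone went with higher signals of all 9 genes as deposited, and 3 of them were at least 2-fold higher: Ccl2 (log2 ratio 1.27), Lif (1.23) and Ccl5 (2.15-fold). The direction of 3 dim or nearly level members turned under another processing: Cxcl12 was at -0.06 with quantile normalization, Cxcl12 at -0.15 and Csf1 at -0.01 with arrays centred on their medians, and Cxcl1 at -0.27 with the median of its probe sets. Centring also took Ccl5 to 0.91, short of 2-fold, and a floor at the 75th percentile of all values took Lif to 0.10. Of all 11200 genes compared, 1.04% were that much higher and 49.7% lay above 0. The median log2 ratio of the 9 was 0.36, beside a median of -0.0017 over all genes. Cxcl10 (0.49), Il6 (0.36), Ccl7 (a bound of 0.24), Cxcl1 (0.20), Csf1 (0.19) and Cxcl12 (0.05) did not reach 2-fold. Ccl2 and Ccl5 are bright, and among the 4910 genes with a signal of at least 1000 on either array only 19 (0.387%) were 2-fold apart. Among those under 200 on both, where Cxcl1, Cxcl12 and Ccl7 lie, 3.20% were. All 8 melanocyte markers were below BRAF-off (median -0.49), with Tyr at least 2-fold lower, 1 of 8 where 0.384% of all genes were. Their part in the cytokine values was not tested here or in the comparisons that follow.

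**Figure D3:**
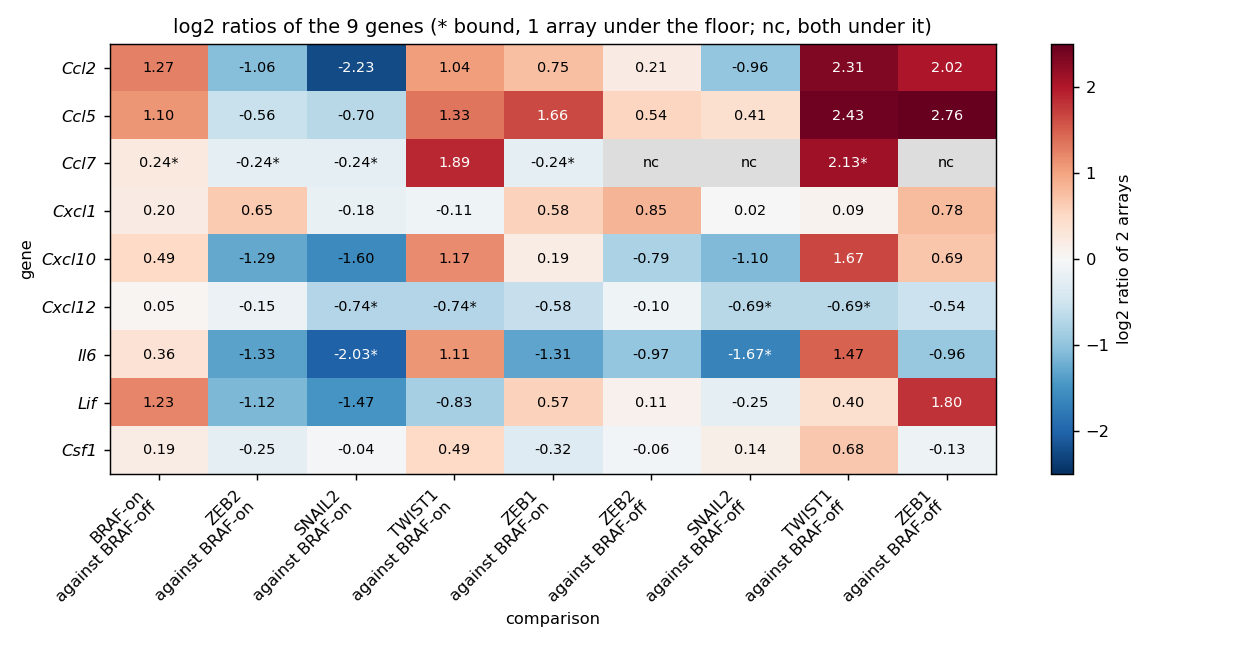
Log2 ratio of 2 arrays (colour and printed value) for each of the 9 genes (rows) in each of the 9 comparisons (columns), with bounds starred and grey cells where both arrays were under the floor. Against BRAF-off, Ccl2 and Ccl5 stand above 2 with both TWIST1 and ZEB1, while Il6 has opposite signs with them.

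The array labelled ZEB2 had lower cytokine signals than BRAF-on. Il6 (log2 ratio -1.33), Cxcl10 (-1.29), Lif (-1.12) and Ccl2 (-1.06) were at least 2-fold lower, 4 of 9, against 0.583% of all genes that much lower. In the list of 11322 genes ordered from the lowest ratio, Il6 was at place 10 and Cxcl10 at place 14. A floor at the 60th percentile took Il6 to -0.97, short of 2-fold. Used as a pseudocount, the floor took Il6 to -0.95 and Lif to -0.94. Cxcl1 (0.65) was the only member above 0. The median was -0.56, beside -0.0048 over all genes. Melanocyte markers were all 8 above BRAF-on (median 0.98), 3 of them, Mitf, Tyr and Slc45a2, by 2-fold or more, where 1.76% of all genes were that much higher. Set against BRAF-off, 0 of 8 members were at least 2-fold apart, where 1.34% of all genes were, and the median was 0.02. Il6 (-0.97) and Cxcl10 (-0.79) were the members farthest below BRAF-off, and Cxcl1 (0.85) and Ccl5 (0.54) the farthest above. Of 11088 genes, Il6 was at place 38 and Cxcl10 at place 82 from the lowest ratio. From the highest, Cxcl1 was at place 185 and Ccl5 at place 638. With quantile normalization, or with arrays centred on their medians, Il6 was at least 2-fold below BRAF-off. Both comparisons use the ZEB2 array, and the BRAF-on array is shared by all comparisons of a factor with it.

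With SNAIL2 all 9 members lay below BRAF-on as deposited, where 45.5% of all genes did. Csf1 turned to 0.04 with arrays centred on their medians, and Cxcl1 to 0.41 with the median of its probe sets. Ccl2 (-2.23), Il6 (-2.03, a bound), Cxcl10 (-1.60) and Lif (-1.47) were at least 2-fold lower, 4 of 9, and 6.42% of all genes were that much lower. With the floor at the 60th percentile the bound for Il6 was -0.97. Ccl5 (-0.70) fell short of 2-fold, and Csf1 (-0.04) was nearly level with BRAF-on. The median of the members was -0.74, beside 0.06 over all genes. Against BRAF-off, 2 of 8 were at least 2-fold lower, Il6 (-1.67, a bound) and Cxcl10 (2.15-fold), against 5.31% of all genes, and Ccl2 was at -0.96. This array differed from BRAF-on in more genes than the others with a factor did, 12.0% of those compared in either direction. On it all 8 melanocyte markers lay above BRAF-on (median 1.42), 6 of them by 2-fold or more (Pmel, Mlana, Mitf, Tyr, Sox10 and Slc45a2), where 5.61% of all genes were that much higher.

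The array labelled TWIST1 had 5 of 9 members at least 2-fold above BRAF-on, where 2.03% of all genes were. These were Ccl7 (1.89), Ccl5 (1.33), Cxcl10 (1.17), Il6 (1.11) and Ccl2 (1.04). Csf1 was at 0.49, while Lif (-0.83), Cxcl12 (-0.74, a bound) and Cxcl1 (-0.11) lay below BRAF-on. With the floor as a pseudocount Il6 was at 0.95, and Cxcl1 turned to 0.06 with quantile normalization and 0.08 with centring. The median was 1.04, beside 0.0026 over all genes. Against BRAF-off, 5 of 9 were at least 2-fold higher (3.11% of all genes), with Ccl5 at 2.43, Ccl2 at 2.31, Ccl7 at 2.13 (a bound), Cxcl10 at 1.67 and Il6 at 1.47. Of the 8 melanocyte markers 7, all but Sox10, were at least 2-fold below BRAF-on on this array (median -5.98), where 2.02% of all genes were. Fibroblast markers were higher on the same array, with 4 of 8 compared at least 2-fold above BRAF-on, among them the surface protease gene Fap, and a summed signal of 13925 against a range of 5924 to 8971 on the others. The part of such cells or states in the chemokine values was not tested.

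With ZEB1 the members went both ways. Ccl5 (1.66) was at least 2-fold above BRAF-on, 1 of 9 where 4.49% of all genes were that high, and Il6 (-1.31) at least 2-fold below it, 1 of 9 where 3.93% were that low. Ccl2 (0.75), Cxcl1 (0.58), Lif (0.57) and Cxcl10 (0.19) lay above BRAF-on without reaching 2-fold, and Cxcl12 (-0.58), Csf1 (-0.32) and Ccl7 (-0.24, a bound) below. Il6 fell short of 2-fold with the floor at the 60th percentile (-0.97) or as a pseudocount (-0.94). The median of 0.19 stood beside 0.07 over all genes. Against BRAF-off, Ccl5 (2.76), Ccl2 (2.02) and Lif (1.80) were at least 2-fold higher, 3 of 8, where 7.06% of all genes were, and Il6 was at -0.96. Melanocyte markers were all 8 below BRAF-on on this array (median -1.51), 7 of them, all but Sox10, by 2-fold or more. Of 7 fibroblast markers compared 3 were at least 2-fold above BRAF-on (Pdgfra, Pdgfrb and Fap), with a median of 0.55. Centring the arrays on their medians left 2 of 7. Among macrophage and leukocyte markers the summed signal, values under the floor included, was 1366 on this array and 723 to 877 on the others. Of the 11 named genes in this list 4 reached the floor on any array. Among them Cd68 was at 466 with ZEB1, 258 with SNAIL2 and 128 in BRAF-on. The defining markers Ptprc, Cd3e, Itgam and Adgre1 were under the floor on all 6. Keratinocyte markers (3 of 7) and endothelial markers (2 of 6) reached the floor in few cases, and their part in the values was not tested.

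**Figure D4:**
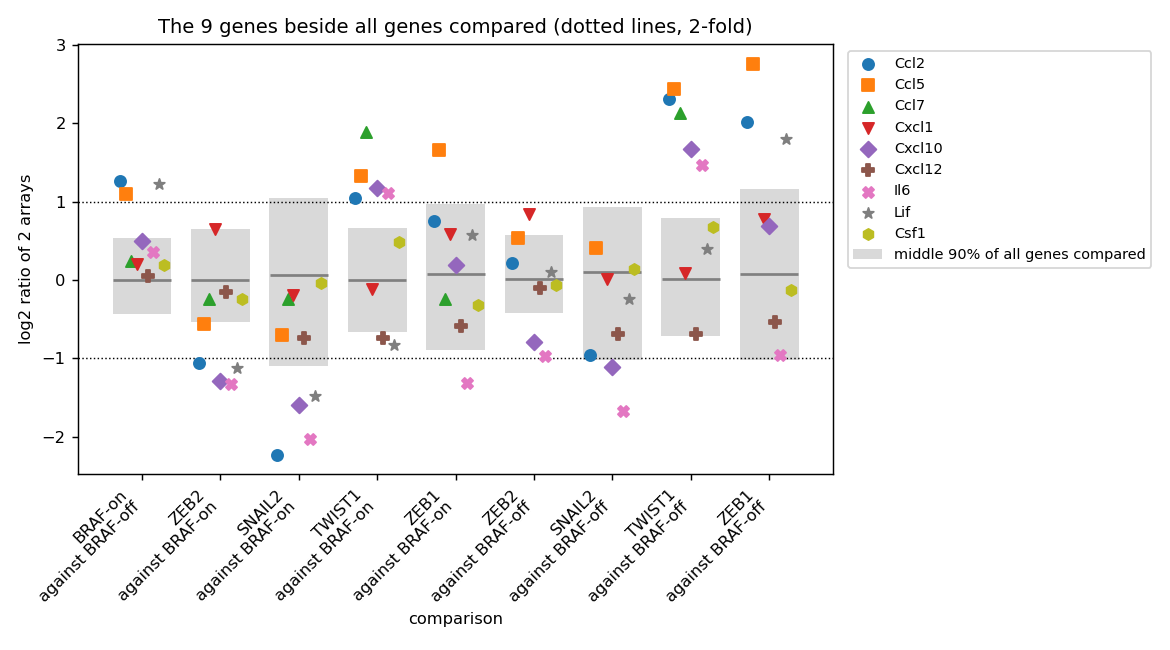
Log2 ratio of 2 arrays (vertical axis) for the 9 genes (symbols) in each of the 9 comparisons (horizontal axis); grey bars span the 5th to 95th percentile of all genes compared, the grey line is their median, and dotted lines mark 2-fold. Against BRAF-on, Ccl2, Cxcl10, Il6 and Lif lie under the bar with SNAIL2, and these and Ccl5 under it with ZEB2, where Cxcl1 is at its upper edge. With TWIST1, Ccl2, Ccl5, Ccl7, Cxcl10 and Il6 lie above it and Lif and Cxcl12 under it. With ZEB1, Ccl5 lies above it and Il6 under it.

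Other chemokine genes were mostly dim. Of 14 further CC chemokine genes with a probe set, 10 reached the floor on any array, and of 13 further CXC and CX3C genes 5 did. Ccl9, which lies beside Ccl5 on chromosome 11, was at 939 in BRAF-off, 954 in BRAF-on, 750 with ZEB2, 453 with SNAIL2, 1034 with TWIST1 and 1761 with ZEB1. It was thus highest with ZEB1, as Ccl5 was, and unlike Ccl5 it did not differ by 2-fold between BRAF-on and BRAF-off (0.02). Ccl17 and Ccl25, like Ccl9, were under BRAF-on by 2-fold or more with SNAIL2, 3 of 9 compared, where 6.42% of all genes were that much lower. Centring the arrays on their medians left 2 of 9. None of the 9 was 2-fold higher, and 3 of them lay above BRAF-on by less. Cx3cl1, a membrane-bound chemokine gene, was at 763 in BRAF-off, 1304 in BRAF-on and 2561 with ZEB1, and on that array it was past 2-fold above BRAF-off (1.75) but not above BRAF-on (0.97). The median log2 ratio of the further CC genes against BRAF-on was -0.39 with ZEB2, -0.57 with SNAIL2, 0.12 with TWIST1 and 0.27 with ZEB1, where the medians over all genes given above ran from -0.0048 to 0.07.

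Of 18 other cytokine and growth factor genes, 11 reached the floor on any array, and in BRAF-on against BRAF-off 7 of 8 compared lay above 0 (4 of 8 with arrays centred on their medians) with 0 past 2-fold, where 1.42% of all genes were. Clcf1, a further ligand of the IL-6 family, was at 207 in BRAF-off, 356 in BRAF-on, 236 with ZEB2, 152 with SNAIL2, 586 with TWIST1 and 560 with ZEB1. Il18, whose protein product is activated through the inflammasome, was at 1181 in BRAF-on, 625 with SNAIL2, 2298 with TWIST1 and 2495 with ZEB1. Il33, an alarmin gene, went the other way with TWIST1, at 252 against 676 in BRAF-on. Il34, another ligand of the CSF1 receptor, was at 525 in BRAF-on and 232 with SNAIL2. The median of this list against BRAF-on was -0.24 with ZEB2, -0.87 with SNAIL2, 0.57 with TWIST1 and 0.26 with ZEB1. For TWIST1 it was 0.08 with quantile normalization and 0.07 with centring, where 11 genes entered in place of 9. Tnf and Il1a were under the floor on all 6 arrays.

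Receptors for these proteins were listed too, and 9 of 13 with a probe set reached the floor on any array. Cxcr3, the receptor for CXCL10, was at 98.6 in BRAF-off, 194 in BRAF-on and 240, 248 and 242 with ZEB2, SNAIL2 and TWIST1, and it was highest with ZEB1 at 583. Lifr, the LIF receptor chain, was at 746 in BRAF-on and 2000 with TWIST1, a log2 ratio of 1.42, on the array where Lif itself was below BRAF-on. Il6st, the shared chain, and Il6ra stayed within 2-fold of BRAF-on on all 4 arrays with a factor. Cxcr4 and Cxcr2 were under the floor on all 6 arrays.

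Regulators of NF-kB and C/EBP signalling were, as deposited, 2-fold apart in counts of 0 to 2 of 21. Of 21 compared in BRAF-on against BRAF-off 0 were 2-fold apart, where 1.42% of all genes were, and 0 of 21 were for ZEB2 against BRAF-on, where 2.34% of all genes were. With SNAIL2, Il1r1, the interleukin-1 receptor gene, lay 2-fold or more under BRAF-on (-1.43), 1 of 21 where 6.42% of all genes did, and 0 of 21 were higher, where 5.61% were. With TWIST1, Relb (1.07), an NF-kB subunit gene, and Birc3 (1.03), a target and regulator of NF-kB, were higher, 2 of 21 where 2.03% of all genes were. With ZEB1 Birc3 (1.02) was, 1 of 21 where 4.49% were. Centring the arrays on their medians made these counts 3 of 21 with TWIST1 and 0 of 21 with ZEB1. The median against BRAF-on was -0.05 with ZEB2, -0.11 with SNAIL2, 0.05 with TWIST1 and 0.31 with ZEB1. Tnip1, a brake on NF-kB signalling, was at 1158 in BRAF-off, 1375 in BRAF-on and 2393 with SNAIL2. Nfkbia, the inhibitor gene that NF-kB itself induces, was at 3022 in BRAF-off, 3785 in BRAF-on, 3237 with ZEB2, 3265 with SNAIL2, 5211 with TWIST1 and 6146 with ZEB1. Cebpb, which binds the Il6 promoter, stayed between 3560 and 4614. Cebpd was at 3037 in BRAF-off, 2847 in BRAF-on and 1763 with SNAIL2 (-0.69 against BRAF-on, short of 2-fold). With ZEB2, TWIST1 and ZEB1 it was at 2758, 2787 and 3168. These are transcript levels, and NF-kB and C/EBP factors are largely controlled at the protein level.

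Counts of 2-fold differences in the next 2 groups stand beside shares of all genes of 6.42% lower with SNAIL2, 0.583% lower with ZEB2, 2.03% higher with TWIST1, and 4.49% higher and 3.93% lower with ZEB1. A list of 13 genes with a probe set held sensors of nucleic acids and microbes, with their signalling proteins and transcription factors. In it Zbp1 and the transcription factor gene Irf7 were at least 2-fold higher than BRAF-on with TWIST1 (1.88 and 1.41) and with ZEB1 (1.52 and 1.96). With SNAIL2, Zbp1 (-3.35) and the RNA sensor gene Ifih1 (-1.05) were at least 2-fold lower, and with ZEB2 Zbp1 (-1.25) was. Centring the arrays on their medians left 1 gene of this list lower with SNAIL2 and gave 3 higher with TWIST1. Cgas, the DNA sensor gene, was at least 2-fold lower with ZEB1 (-1.13). Of other proteins that senescent cells release, Mmp3 and Mmp13 exceeded BRAF-off by 2-fold or more in BRAF-on, 2 of 9 compared where 1.04% of all genes did. Against BRAF-on the 9 had 0 higher and 4 lower with SNAIL2 (Plaur, Igfbp3, Igfbp7 and Mmp13) and 4 higher and 0 lower with ZEB1 (Angptl4, Igfbp4, Mmp3 and Mmp13). With ZEB2 none of them was 2-fold from BRAF-on, and with TWIST1 Mmp3 was higher, 1 of 9. Their median was -0.54 with ZEB2, -0.71 with SNAIL2, 0.66 with TWIST1 and 0.75 with ZEB1. That of the list with the sensors was -0.09, -0.28, 0.45 and 0.36 in the same order. All of these were compared with the same BRAF-on array.

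The genes whose signals most resembled each member over the 6 arrays were found by Pearson correlation of log2 signals among 3623 genes that varied by at least 2-fold. For Ccl2 they were Clcf1 (r = 0.995), Rhox5 (0.989) and Dll1 (0.988), and for Ccl5 Msx1 (0.996), the interferon-induced gene Oas3 (0.994) and Znfx1 (0.993). Cxcl10 was most like Arntl2 (0.995), Car13 and Elfn1, Lif most like Inava (0.987), Pstpip1 and Tbx3, and Csf1 most like Fbn2 (0.993), Pde5a and Cnn1. For Il6 they were Sgk1 (0.985), Il1r1 (0.985) and Sertad4 (0.979). Il1r1 was at 145 in BRAF-off, 195 in BRAF-on, 100.0 with ZEB2, 72.4 with SNAIL2, 361 with TWIST1 and 122 with ZEB1, so it shared with Il6 the high array labelled TWIST1 and a value below both reference arrays with ZEB1. The dim Cxcl1 and Cxcl12 gave their closest genes at lower values, Serpina3n (0.967) and Tecrl (0.949), and Ccl7 reached the floor on too few arrays. Each r rests on 6 arrays, 1 per group, that share their scaling, and was picked as the highest of the 3623.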

How the data were processed

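Total RNA from 6 melan-a cultures, 1 per group, was amplified with a 3' kit and hybridised to 1-colour Affymetrix mouse arrays, per the labels' protocols. MAS5 in Affymetrix Expression Console (version 1.1) made the deposited linear signal intensities, per the submitters' processing notes; the mean of each array without its outer 2% at each end was 500.003, so arrays came scaled. Probe sets were named through the platform annotation (34945 with 1 symbol, 932 with several, 9160 with none), updated by Entrez number against RefSeq GRCm38.p6 (34741 matched). Of 45101 probe sets 64 were controls. Groups came from the labels. The brightest probe set per gene, a floor at the median of all values (63.7), log2 ratios, entry of genes with 1 array of the pair at the floor or above, and 2-fold as the size that counts were used. Counting by size was checked on simulated data, with changes set past 2-fold in genes far above the floor. That check covers the counting only, and neither noise between arrays nor dim genes. Every probe set of the 9 genes was read on all arrays. From each list up to 4 genes at least 2-fold apart were to be named; others named (among them Tnf, Il1a, Nfkbia, Cebpb, Il6st, Il6ra, Cxcr2, Cxcr4, Cxcl9, Cxcl11, Plaur, Igfbp3, Igfbp7, further cell type markers and chromosomal neighbours) were chosen after their values were seen. Of each member with 4 arrays at the floor, the 3 genes most like it were taken. The members and lists were chosen with earlier results of these data known. All 9 alternatives are in the closing section. Computation used Python 3.11.15, numpy 2.4.6, pandas 2.3.3, scipy 1.17.1 and matplotlib 3.10.9. The number of arrays limits the precision.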

Additional observations from a re-analysis of the deposited data

How the results depend on the processing

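No paired analysis was possible because each group has 1 array and the result comes from no test. For the 9 genes, 628 ratios were set against the size that counts under 9 alternatives. Of these, 589 kept their side of it and, where past it, their direction, 39 changed side, and 0 of those past 2-fold changed sign. Of the 39, 15 come from the 3-fold alternative, where the ratios are unchanged and fell short of 3-fold. The rest crossed 2-fold. Leaving out the probe sets that can match several transcripts moved none of the 69 ratios it gave across 2-fold. Among all ratios 14 took the other sign, 0 of them past 2-fold before or after, and these concern Cxcl1, Cxcl12, Csf1 and Lif; in the comparisons with BRAF-off they are Lif (-0.04 with centring) and Cxcl1 (-0.27 with the median of its probe sets) with ZEB2, Cxcl1 (-0.05 with quantile normalization, -0.10 with centring) and Csf1 (-0.08 with the median of probe sets) with SNAIL2, and Cxcl1 (-0.27, likewise) with TWIST1, the others being given in the report. The counts of members past the size that counts, 3 for BRAF-on against BRAF-off, 4, 4, 5 and 2 for ZEB2, SNAIL2, TWIST1 and ZEB1 against BRAF-on, and 0, 2, 5 and 3 for them against BRAF-off, became the following, and stood in every other case. At 3-fold, 0 were left for BRAF-on against BRAF-off, 0 for ZEB2, 3 (without Lif) for SNAIL2, 1 (Ccl7) for TWIST1 and 1 (Ccl5) for ZEB1 against BRAF-on, and 1 (Il6) for SNAIL2 and 4 (without Il6) for TWIST1 against BRAF-off. With the floor at the 75th percentile, 2 (without Lif) were left for BRAF-on against BRAF-off, 2 (Ccl2 and Cxcl10) for ZEB2 and for SNAIL2, 3 (Ccl2, Ccl5 and Cxcl10) for TWIST1 and 1 (Ccl5) for ZEB1 against BRAF-on, and 1 (Cxcl10) for SNAIL2, 3 for TWIST1 and 2 (without Lif) for ZEB1 against BRAF-off. With it at the 60th percentile Il6 dropped out, which left 3 for ZEB2, 3 for SNAIL2 and 1 for ZEB1 against BRAF-on, and 1 for SNAIL2 against BRAF-off. With the floor as a pseudocount, 2 (Ccl2 and Cxcl10) were left for ZEB2, 4 (without Il6) for TWIST1 and 1 (Ccl5) for ZEB1 against BRAF-on. Without a floor, 6 were counted for TWIST1 against each reference, Cxcl12 being the added and lower one, and 5 and 3 for SNAIL2 against BRAF-on and BRAF-off, with Ccl7 added. Taking the median over a gene's probe sets gave 6 for TWIST1 against BRAF-on, with Lif lower. With quantile normalization or centring on the median, Il6 became at least 2-fold lower than BRAF-off with ZEB2 (1 member) and with ZEB1 (4 members in all). Centring also left 2 (without Ccl5) for BRAF-on against BRAF-off and gave 3 (with Ccl2) for SNAIL2 against BRAF-off. Centring shifted the median of all genes to -0.20 for BRAF-on against BRAF-off and to 0.19 for TWIST1 against BRAF-on.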
